A study of Mus musculus with 22 samples.

Results

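The genes described are 9 regulators of the secretory lineages and of Notch signalling in the intestinal crypt, out of 21887 protein-coding genes of the mm10 annotation. They were chosen by name: Atoh1, Gfi1, Spdef, Neurog3, Neurod1, Insm1, Hes1, Dll1 and Dll4. Every ChIP-seq peak that lay in one of these genes or within 10 kb of it was taken from the 16 deposited peak lists of the series, which gave 167 peaks in all. Of these, 91 lay within 1 kb of either end of the gene, 17 lay in the gene body and 59 lay in the flanks.

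In the crypt epithelium, Notch signalling between neighbouring cells decides between absorptive and secretory fate. A cell that displays the ligands DLL1 or DLL4 activates Notch receptors on its neighbours, and the neighbours then express Hes1, whose product is a transcriptional repressor of Atoh1. A cell that escapes Notch keeps ATOH1, the master bHLH factor of secretory cells, and later expresses Gfi1 and Spdef in goblet and Paneth cells or Neurog3, Neurod1 and Insm1 in enteroendocrine cells. Polycomb repressive complex 1 (PRC1) acts on such developmental genes by placing ubiquitin on histone H2A (H2AK119ub1) through its ligase subunit RING1B. PCGF6 is the RING finger subunit of one variant of PRC1, which also holds the DNA-binding pairs MGA with MAX and E2F6 with a DP partner. CTCF binds insulators, and RAD21 belongs to the cohesin ring.

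The crypts came from the small intestine of C57BL/6 mice, and KO means Pcgf6 KO crypts and WT their wild-type counterparts. In the AhCre line, KO and WT crypts were profiled for PCGF6, RING1B and H2AK119ub1. In the Villin line, KO and WT crypts were profiled for RING1B, H2AK119ub1, CTCF and RAD21. E14 embryonic stem cells (ESC), which are WT, were profiled for PCGF6 and RING1B. AhCre is induced with BNF and the Villin driver with tamoxifen. The series' design text gives male mice 8 to 12 weeks old and crypts taken 7 days after induction, but for the RNA samples, and whether this holds for the ChIP crypts was not given in the sources used here. Nor was it stated whether WT mice carried a Cre or received the inducer. H2AK119ub1 chromatin was spiked with 5% Drosophila S2 chromatin. Crypts hold stem, progenitor and differentiated cells together, so fewer cells with a mark and less mark per cell cannot be told apart.

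Each group had 1 library, so no value below has a replicate error and no difference between groups was tested. A peak's score is the −log10 p or q value (the sources do not say which) from the authors' peak caller. No score was under 10, and scores were not scaled between libraries. The lists held between 1662 and 32651 peaks. Sequencing depth cannot be read from them. A gene-end peak is one that reaches into the window of 1 kb on both sides of a gene's start or end. It is called lost in KO when WT had one, KO had none and the WT peak overlapped nothing in the KO list, and gained when the reverse held. As a check on the labels, the PCGF6 list of KO crypts held 4779 peaks against 17163 in WT crypts. A PCGF6 peak at the Pcgf6 gene itself was found in WT (score 20.8) and not in KO. Of all genes with a gene-end PCGF6 peak in WT, 64.4% lost it, so that absence is not particular to Pcgf6. The lists hold no expression values, so the cell type of the crypts was not checked against markers.

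Across the 9 genes and 16 lists, 66 of 144 gene and list pairs had a gene-end peak. Atoh1 and Insm1 had one in 11 lists each, Gfi1 and Hes1 in 10 each, and Dll1 and Dll4 in 9 each. Neurog3 had one in 4 lists, and Spdef and Neurod1 in 1 list each. The genes fell into groups. Atoh1, Gfi1 and Insm1 had broad, high-scoring RING1B and H2AK119ub1 domains. Hes1, Dll1 and Dll4 had CTCF and RAD21 at their ends in WT and weaker PRC1 peaks. Neurog3, Neurod1 and Spdef had few crypt peaks. Gene-end PCGF6 of WT crypts was found in both of the first groups. Its scores were 11.8 at Atoh1 and 25.8 at Insm1 (none at Gfi1), and 57.0 at Hes1, 11.8 at Dll1 and 24.1 at Dll4. This grouping was made after the values were seen.

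**Figure D1:**
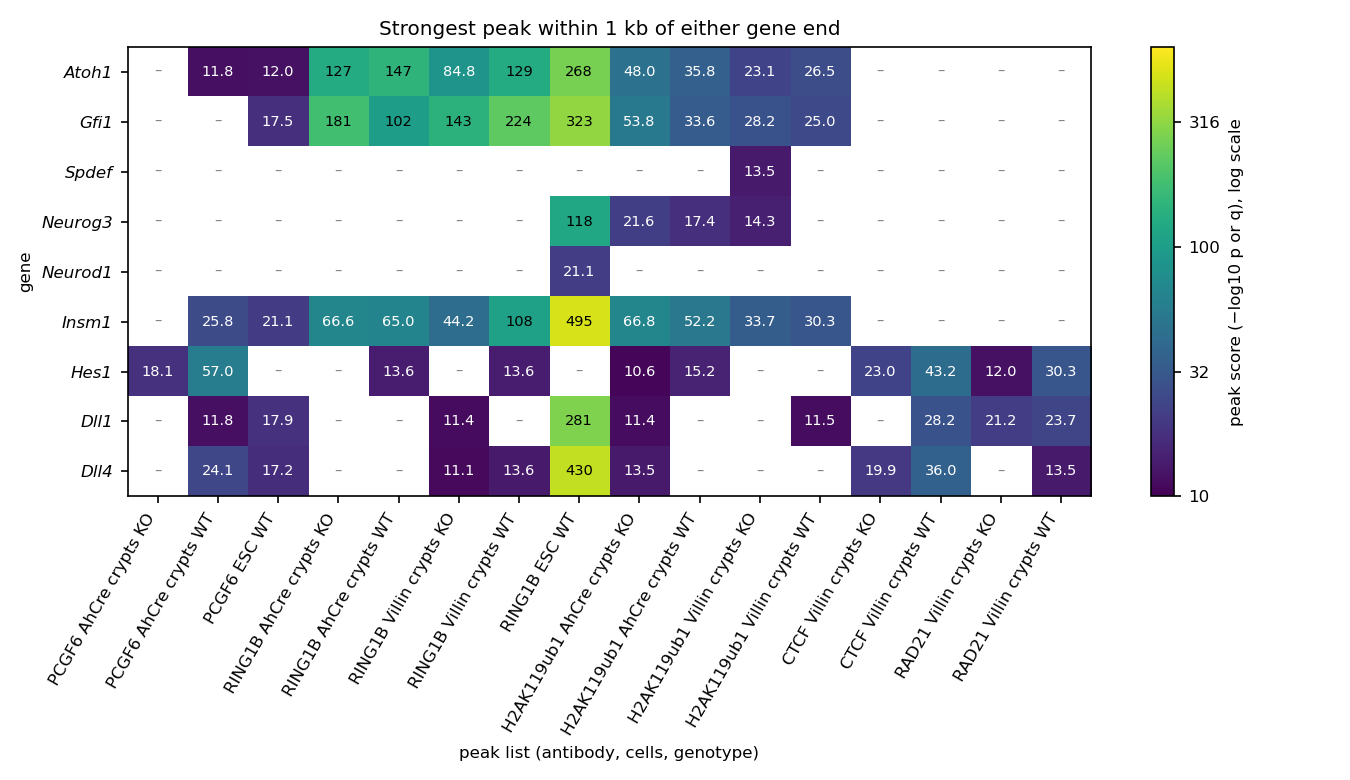
Score of the strongest peak within 1 kb of either gene end, for 9 genes (rows) in 16 peak lists (columns); colour gives the score (−log10 p or q) on a log scale, and a dash means no peak. RING1B scores of Atoh1, Gfi1 and Insm1 lie between 44.2 and 224 in crypts, and CTCF and RAD21 peaks appear at the ends of Hes1, Dll1 and Dll4 only.

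A gene-end RING1B peak was present at 3 of the 9 genes in AhCre KO crypts (4.89% of all genes) and at 4 in AhCre WT crypts (7.74% of all genes). In Villin crypts it was present at 5 in KO (7.61% of all genes) and 5 in WT (14.2% of all genes). H2AK119ub1 lay at 7 of the 9 genes in AhCre KO crypts (17.7% of all genes) and 5 in AhCre WT crypts (16%), and at 5 in Villin KO crypts (8.85%) and 4 in Villin WT crypts (10.4%). PCGF6 lay at 1 in KO crypts (13.7% of all genes) and at 5 in WT crypts (39.9%). CTCF lay at 2 in KO crypts (23.2%) and 3 in WT crypts (25.5%), and RAD21 at 2 in KO (14%) and 3 in WT (22.2%). RING1B and H2AK119ub1 were thus present at a larger share of the 9 genes than of all genes in every crypt list, while PCGF6 and CTCF in KO crypts were not.

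Atoh1 (chromosome 6, 64729125 to 64731245, forward strand) encodes the bHLH factor without which no secretory cells form. A single RING1B peak covered the whole gene and the region beyond its end in every RING1B list. It was 8.14 kb wide with a score of 127 in AhCre KO crypts and 8.05 kb wide with a score of 147 in AhCre WT crypts. In Villin crypts it was 7.66 kb wide (score 84.8) in KO and 7.92 kb wide (score 129) in WT. The RING1B score at Atoh1 was above that of 92.4% of peaks in the AhCre KO list and 95% in the AhCre WT list. The corresponding shares were 94.7% in Villin KO and 97.1% in Villin WT. H2AK119ub1 covered the same stretch, with 7.89 kb (score 48.0) in AhCre KO and 8.96 kb (score 35.8) in AhCre WT crypts. In Villin KO crypts the mark formed 2 peaks of 2.25 and 3.74 kb (scores 23.1 and 21.8), against 1 peak of 7.58 kb (score 26.5) in Villin WT crypts. The RING1B domain of Atoh1 was thus present in both genotypes of both lines, with lower scores in KO, while PCGF6 was found in WT alone. PCGF6 had no peak in KO, against a peak of score 11.8 over the start and one of score 17.0 centred 5.74 kb downstream of it in WT crypts. Neither CTCF nor RAD21 had a peak within 10 kb of the gene in KO or WT. Gm35851 is annotated within 1 kb of the peaks over the start.

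The RefSeq promoter of Atoh1 (GRCm38.p6, the mm10 build, chr6:64728875-64729174, forward strand, 250 bases before to 50 after the start) is shown because peaks of 10 lists lay over it, all 5 RING1B lists among them. Capitals mark the single match to the motifs searched, CACNAG read on the reverse strand, the N-box that HES repressors bind.
Atoh1: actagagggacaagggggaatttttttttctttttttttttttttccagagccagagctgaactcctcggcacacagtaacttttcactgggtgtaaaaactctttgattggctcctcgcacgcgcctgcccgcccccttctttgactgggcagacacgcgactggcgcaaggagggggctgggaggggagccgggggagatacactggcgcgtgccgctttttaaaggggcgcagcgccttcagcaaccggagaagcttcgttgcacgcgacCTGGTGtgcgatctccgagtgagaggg
Its GC content was 56.7% with 20 CpG dinucleotides, against medians of 56.3% and 13.0 over 21263 promoters of protein-coding genes. The N-box match begins 24 bases into the transcript, and 41.9% of all promoters of that length hold such a match.

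Gfi1 (chromosome 5, 107716655 to 107725805, reverse strand) encodes a zinc finger repressor that keeps goblet and Paneth progenitors from the enteroendocrine fate. Its RING1B peak was 10.3 kb wide with a score of 181 in AhCre KO crypts. In AhCre WT crypts there were 2 peaks, of 6.67 kb (score 102) over the starts and of 0.823 kb (score 12.8) within the gene. In Villin crypts the peak was 10.2 kb wide (score 143) in KO and 10.4 kb wide (score 224) in WT. The KO score was thus the higher of the pair in AhCre crypts and the lower in Villin crypts. H2AK119ub1 reached 12.1 kb (score 53.8) in AhCre KO against 9.35 kb (score 33.6) in AhCre WT crypts. It was split into 4 peaks in Villin KO crypts (highest score 28.2) and 2 in Villin WT crypts (highest score 25.0). PCGF6 had no peak within 10 kb in KO or WT crypts, and CTCF and RAD21 had none either.

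The promoter of Gfi1 at its upstream start (GRCm38.p6, chr5:107725756-107726055, reverse strand) is shown beside that of Atoh1 because RING1B covers it in all 5 RING1B lists and PCGF6 only in ESC. It holds none of the motifs searched and so has no capitals.
Gfi1: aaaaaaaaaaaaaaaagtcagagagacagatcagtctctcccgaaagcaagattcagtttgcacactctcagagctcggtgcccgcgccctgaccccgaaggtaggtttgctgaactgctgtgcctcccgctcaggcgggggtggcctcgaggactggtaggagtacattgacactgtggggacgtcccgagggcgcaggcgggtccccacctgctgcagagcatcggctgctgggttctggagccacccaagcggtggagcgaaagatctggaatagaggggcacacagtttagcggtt
Its GC content was 58.0%, with 16 CpG dinucleotides. The same 10 of the 16 lists had a peak over the promoter at the other start of Gfi1.

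Insm1 (chromosome 2, 146221997 to 146225020) encodes a zinc finger factor of early enteroendocrine cells. Its main RING1B peak lay over the lower-coordinate end of the gene and reached beyond it. It was 4.58 kb wide (score 66.6) in AhCre KO and 4.66 kb wide (score 65.0) in AhCre WT crypts, and 4.84 kb (score 44.2) in Villin KO and 4.83 kb (score 108) in Villin WT crypts. Its position and width were nearly the same in all 4 crypt lists, and the KO score was below the WT score in Villin crypts only. A second RING1B peak within the gene had scores of 15.0 in AhCre KO and 25.1 in AhCre WT crypts, and 12.5 in Villin KO and 18.2 in Villin WT crypts. H2AK119ub1 at Insm1 ranked among the strongest of each list. Its scores of 66.8 in AhCre KO and 52.2 in AhCre WT were above 99.7% and 99.3% of the peaks of those lists. In Villin crypts its scores were 33.7 in KO and 30.3 in WT, above 99.3% and 97.5% of the peaks. PCGF6 peaks of score 25.8 and 10.1 in WT crypts had no counterpart in KO crypts. A CTCF peak centred 7.10 kb outside the gene had scores of 130 in KO and 134 in WT crypts, and a RAD21 peak there was found in WT (score 16.2) and not in KO. That place also lies within 1 kb of an end of Cfap61.

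**Figure D2:**
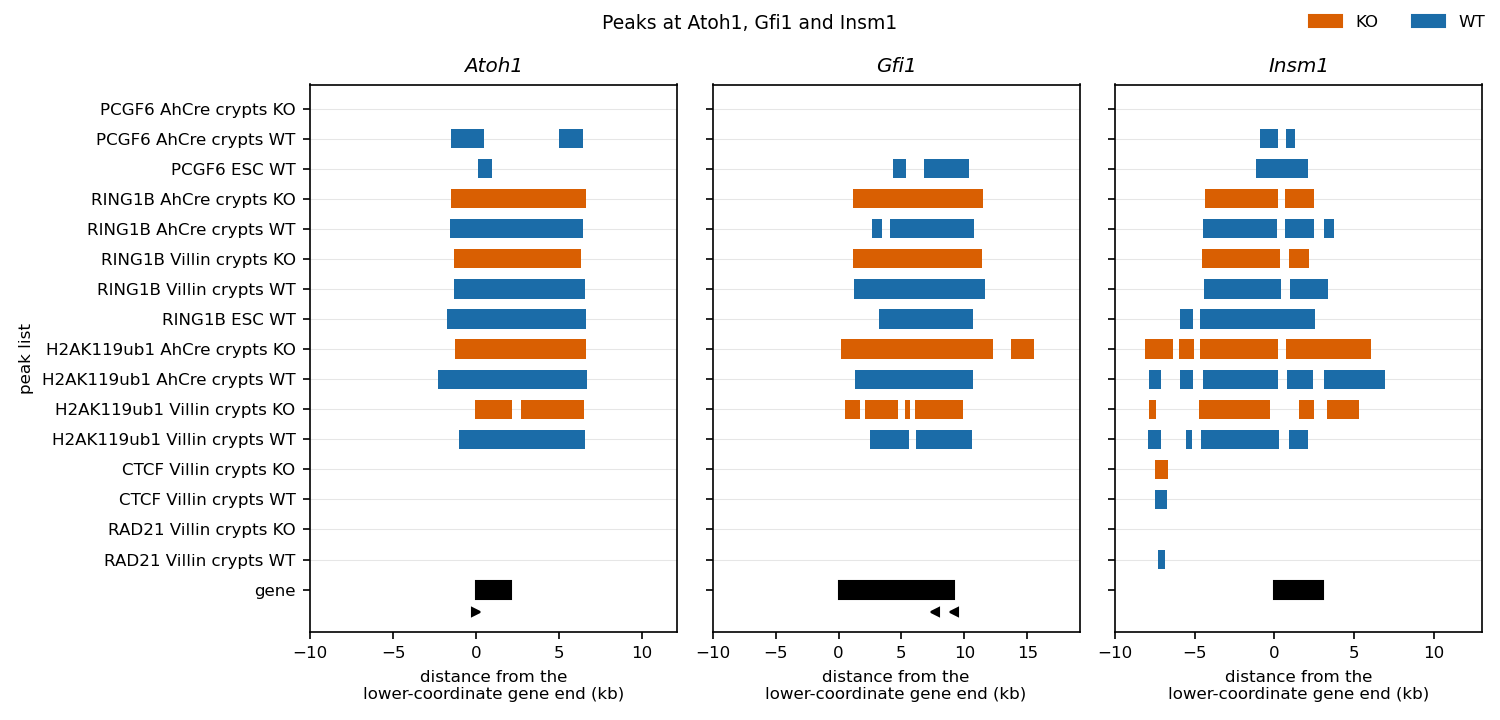
Peaks at Atoh1, Gfi1 and Insm1 in the 16 lists (rows, KO orange and WT blue), against the distance in kb from the lower-coordinate end of each gene; black bars are the genes and arrowheads are RefSeq starts with their direction (none was given for Insm1). RING1B spans 7.66 to 8.35 kb at Atoh1 in both genotypes and in ESC, and PCGF6 appears at Atoh1 and Insm1 in WT lists only.

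Neurog3, Neurod1 and Spdef had no RING1B peak within 10 kb in any crypt list. Neurog3 (chromosome 10, 62133090 to 62134763, forward strand), the bHLH factor that starts enteroendocrine differentiation, had H2AK119ub1 without RING1B. Its peak was 2.57 kb wide (score 21.6) in AhCre KO and 1.71 kb wide (score 17.4) in AhCre WT crypts. In Villin crypts a peak of 1.95 kb (score 14.3) was found in KO, and none in WT. The mark at Neurog3 thus covered more bases in KO in both lines, in Villin crypts as a gained peak. A CTCF peak centred 5.87 kb upstream in KO (score 59.1) and 5.77 kb upstream in WT (score 51.9) had no RAD21 peak beside it. Neurod1 (chromosome 2, 79452637 to 79456636, reverse strand), which acts after Neurog3, had no peak of any antibody within 10 kb in KO or WT crypts. Spdef (chromosome 17, 27714446 to 27731003, reverse strand), an ETS factor of goblet and Paneth cell maturation, had H2AK119ub1 in its body. This peak was 3.45 kb wide (score 23.0) in AhCre KO and 3.23 kb wide (score 16.4) in AhCre WT crypts. In Villin crypts it was found in WT (1.85 kb, score 14.5) and not in KO, where a peak of 0.600 kb (score 13.5) lay at the 3′ end of the gene instead. The 3 further peaks beyond the 3′ end (scores 11.4, 12.9 and 10.7) were found in AhCre KO and not in AhCre WT crypts. Pacsin1, the nearest protein-coding gene, lies 3.33 kb from Spdef on that side. These peaks were centred farther out, at 9.68, 6.83 and 5.35 kb, so they cannot be assigned to Spdef rather than Pacsin1.

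The promoters of Neurog3 (GRCm38.p6, chr10:62132840-62133139, forward strand) and Neurod1 (chr2:79456587-79456886, reverse strand) are shown because RING1B lay over both in ESC and over neither in crypts. Capitals mark CAGCTG, an E-box of ATOH1 and related bHLH proteins, in Neurog3. In Neurod1 they mark GGCGGGA, an E2F motif, at 2 places and CACNAG at 1.
Neurog3: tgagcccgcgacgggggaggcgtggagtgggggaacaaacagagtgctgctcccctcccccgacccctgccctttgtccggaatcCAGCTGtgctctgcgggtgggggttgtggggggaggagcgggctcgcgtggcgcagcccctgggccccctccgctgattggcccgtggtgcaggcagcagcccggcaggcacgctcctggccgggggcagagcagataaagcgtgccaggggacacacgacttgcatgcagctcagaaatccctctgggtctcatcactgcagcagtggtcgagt
Neurod1: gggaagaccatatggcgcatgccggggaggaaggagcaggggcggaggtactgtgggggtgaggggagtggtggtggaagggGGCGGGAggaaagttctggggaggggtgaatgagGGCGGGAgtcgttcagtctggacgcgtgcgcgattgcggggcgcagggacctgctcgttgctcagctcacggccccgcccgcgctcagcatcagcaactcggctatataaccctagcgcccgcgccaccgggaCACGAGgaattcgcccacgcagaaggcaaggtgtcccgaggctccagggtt
Their GC contents were 68.3% and 66.7%, above that of the Atoh1 promoter. Over all promoters, 15.6% hold CAGCTG and 14.9% hold GGCGGGA on either strand.

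**Figure D3:**
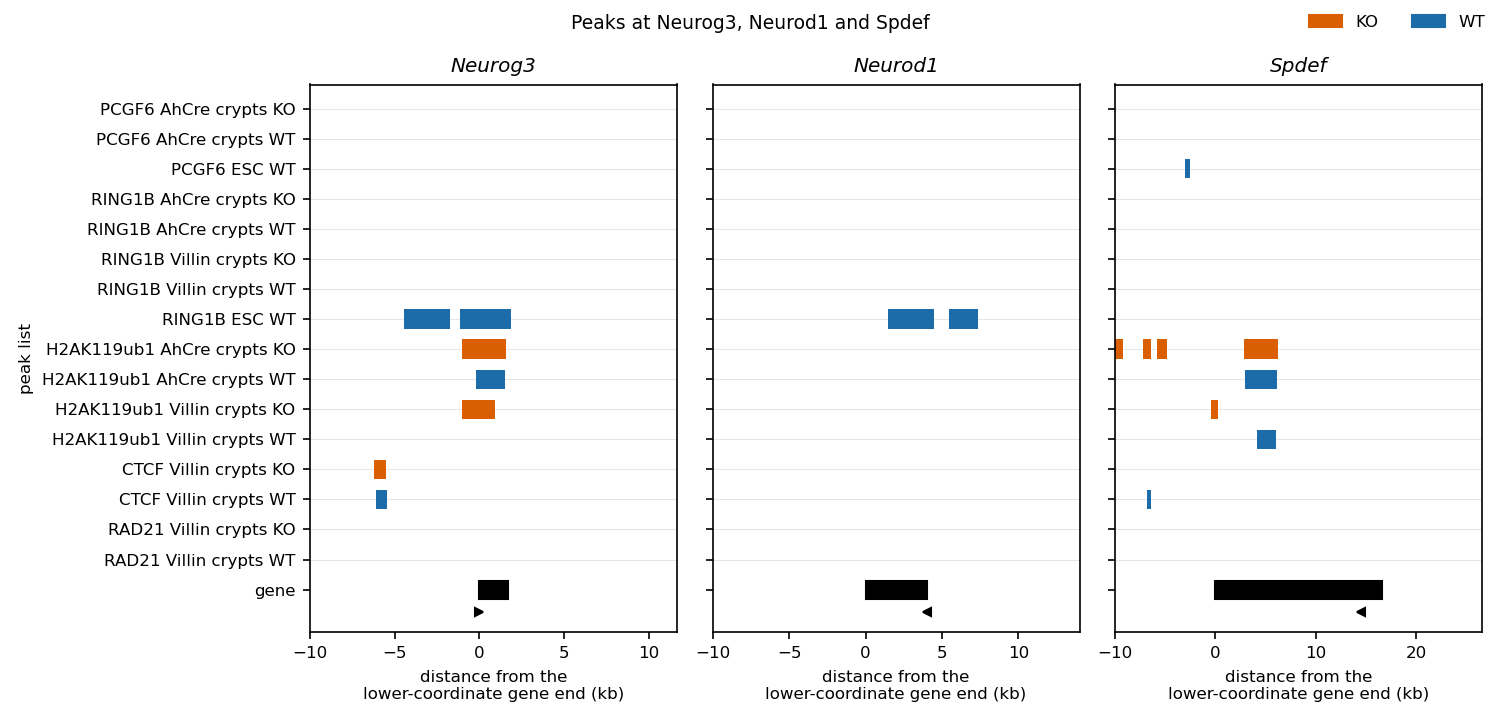
Peaks at Neurog3, Neurod1 and Spdef in the 16 lists (rows, KO orange and WT blue), against the distance in kb from the lower-coordinate end of each gene; black bars are the genes and arrowheads are RefSeq starts with their direction. RING1B appears at Neurog3 and Neurod1 in ESC only, and H2AK119ub1 appears at Neurog3 in Villin KO (score 14.3) without a Villin WT peak.

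Hes1 (chromosome 16, 30065357 to 30067796), the repressor that Notch induces, was the one gene of the 9 that lost RING1B in both Cre lines. There was no RING1B peak within 10 kb in AhCre KO crypts, against 3 in AhCre WT crypts (scores 13.6, 12.8 and 13.6). There was none in Villin KO crypts either, against 2 in Villin WT crypts (scores 10.4 and 13.6). These were weak peaks, and of the genes with a WT score within 20% of that of Hes1, 64.4% lost theirs in AhCre and 72.6% in Villin crypts. With scores of 20 or more in either line, or with Villin lists of equal length, the WT peaks of Hes1 drop out and no loss was called. Over all genes, 271 of the 1452 that carried gene-end RING1B in the WT crypts of both lines were without it in both KO lists (18.7%). Of the 4 such genes among the 9, Hes1 alone was. Gains of RING1B in both lines (0.0594% of genes without it), and losses (1.80%) and gains (0.253%) of H2AK119ub1 in both, were found at 0 of the 9 genes. H2AK119ub1 at the gene had a score of 10.6 in AhCre KO and 15.2 in AhCre WT crypts, and no Villin peak was found within 10 kb. Hes1 had the highest gene-end PCGF6 score of the 9 genes, with 18.1 in KO and 57.0 in WT crypts, at the lower-coordinate end. The other 4 of its PCGF6 peaks in WT (scores 35.5, 20.8, 17.1 and 10.9) had no KO counterpart.

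RAD21 lay at many of the same places of Hes1 as PCGF6. Of the 5 WT PCGF6 peaks within 10 kb, 4 overlapped a WT RAD21 peak of Villin crypts, against 33.9% of all WT PCGF6 peaks. RAD21 peaks numbered 4 in KO and 5 in WT crypts. The peak missing in KO was that over the lower-coordinate end (WT score 21.1). The RAD21 peak within the gene had a score of 12.0 in KO and 30.3 in WT, and one 2.28 kb outside the lower-coordinate end in KO had 11.0 in KO and 21.1 in WT. The outermost peaks were higher in KO, with 17.6 in KO and 13.9 in WT beyond the lower-coordinate end and 13.1 in KO and 10.6 in WT beyond the other. A CTCF peak of score 23.0 in KO and 43.2 in WT lay within the gene. Gm32998 is annotated beside the higher-coordinate end, so peaks there lie within 1 kb of both genes. Hes1 and Insm1 have no entry in the promoter table.

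Dll1 (chromosome 17, 15367354 to 15376932, reverse strand) and Dll4 (chromosome 2, 119325784 to 119335666, forward strand) encode the Notch ligands of crypt secretory cells. At both genes the strongest PCGF6 peaks lay away from the start, and those were the peaks found in KO too. At Dll1 a peak centred 3.87 kb upstream of the upstream start had a score of 22.4 in KO, and its counterpart centred 3.96 kb upstream had a score of 72.6 in WT (chr17:15380019-15381773). Dll1's WT peaks around its 2 starts (scores 11.8 and 10.9) were absent in KO. At Dll4 a peak centred 3.24 kb upstream had a score of 16.4 in KO, and its counterpart 3.13 kb upstream had a score of 85.3 in WT (chr2:119321848-119323453). A second, centred 12.0 kb downstream of the start in WT and past the end of the gene, had scores of 32.8 in KO and 100.2 in WT (chr2:119337202-119338395). Dll4's WT peaks around the start (scores 24.1 and 10.5) were absent in KO. Over the 9 genes, 4 of 16 WT PCGF6 peaks overlapped a KO peak, against 26.9% of all WT PCGF6 peaks. These 4 were the highest-scoring of the 16, at Dll4, Dll1 and Hes1.

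The 16 WT PCGF6 peaks near the 9 genes often lay under RING1B. They overlapped RING1B of AhCre crypts at 5 places in KO (4.24% of all WT PCGF6 peaks) and 7 in WT (7.20%). They overlapped RING1B of Villin crypts at 9 places in KO (7.14%) and 12 in WT (15.9%), and RING1B of ESC at 11 (12.6%). For H2AK119ub1 the counts were 11 in AhCre KO (13.4%), 9 in AhCre WT (13.4%), 4 in Villin KO (6.07%) and 7 in Villin WT (8.20%). They overlapped PCGF6 of ESC at 10 places (24.1%). CTCF lay at 3 in KO (29.2%) and 3 in WT (32.3%), and RAD21 at 6 in KO (23.3%) and 8 in WT (33.9%). Several of these peaks sit in the same RING1B domain, so the 16 are not independent places.

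RING1B peaks at the ligand genes had scores of 10.8 to 40.6 in crypts, the highest of them upstream of Dll4 in Villin WT crypts. At Dll1 a peak of 0.366 kb (score 10.8) lay near the downstream start in AhCre KO, and there was none in AhCre WT. In Villin crypts, peaks near the starts had scores of 13.6 and 11.4 in KO, against 1 of score 20.7 in WT, and the WT peak at the upstream PCGF6 site (score 17.7) had no KO counterpart. At Dll4 the upstream PCGF6 site had no RING1B in AhCre KO against a score of 12.6 in AhCre WT. In Villin crypts it had a score of 21.3 in KO and 40.6 in WT, the WT score above 89.8% of the peaks of its list. Over the Dll4 start the Villin scores were 11.1 in KO and 13.6 in WT. H2AK119ub1 upstream of Dll4 was 4.31 kb wide (score 13.5) in AhCre KO and 4.03 kb wide (score 15.9) in AhCre WT crypts, and a peak over the start (score 12.1) was found in AhCre KO and not in AhCre WT. Within 10 kb of Dll4 the highest AhCre scores of the mark were 13.5 in KO (6.80 kb covered) and 16.5 in WT (6.21 kb). In Villin crypts they were 11.1 in KO (1.82 kb) and 13.6 in WT (2.66 kb). At Dll1 the mark was at or below a score of 11.5 in every list, with a gene-end peak in AhCre KO (11.4) but not AhCre WT, and in Villin WT (11.5) but not Villin KO. AhCre WT crypts had a peak of the same score, 11.4, in the gene body instead.

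CTCF and RAD21 lay at the ligand genes in Villin crypts. The downstream Dll4 site that held PCGF6 also held CTCF, with scores of 410 in KO and 398 in WT, and RAD21, with scores of 138 in KO and 209 in WT. RING1B lay there in Villin WT crypts (score 29.7) and had no peak there in Villin KO crypts. Over the Dll4 start, CTCF scores were 19.9 in KO and 36.0 in WT, with a second peak inside the gene of 31.3 in KO and 32.7 in WT, and the RAD21 peak (score 13.5 in WT) was lost. At Dll1 the CTCF peak just upstream of the starts had a score of 23.0 in KO and 28.2 in WT. RAD21 peaks at the Dll1 ends had scores of 21.2 and 14.2 in KO and 23.7 and 18.6 in WT.

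The promoter of Dll4 (GRCm38.p6, chr2:119325534-119325833, forward strand) is shown because PCGF6 and RAD21 of WT crypts, and CTCF and RING1B of both Villin genotypes, all lay over it. Gm14207 is annotated close to the same start, and Gm52558 close to the upstream site. Capitals mark the one motif match, CACNAG.
Dll4: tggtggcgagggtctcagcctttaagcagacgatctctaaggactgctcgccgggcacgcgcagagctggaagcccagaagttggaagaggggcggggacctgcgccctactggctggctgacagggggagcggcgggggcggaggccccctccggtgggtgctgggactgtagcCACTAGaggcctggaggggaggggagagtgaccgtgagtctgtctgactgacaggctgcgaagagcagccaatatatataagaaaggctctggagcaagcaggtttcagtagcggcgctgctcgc
Its GC content was 63.7%, with 17 CpG dinucleotides. The promoters at the 2 starts of Dll1 held PCGF6 in WT crypts and ESC, and the upstream one had 1 match each to CAGCTG and CACNAG.

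**Figure D4:**
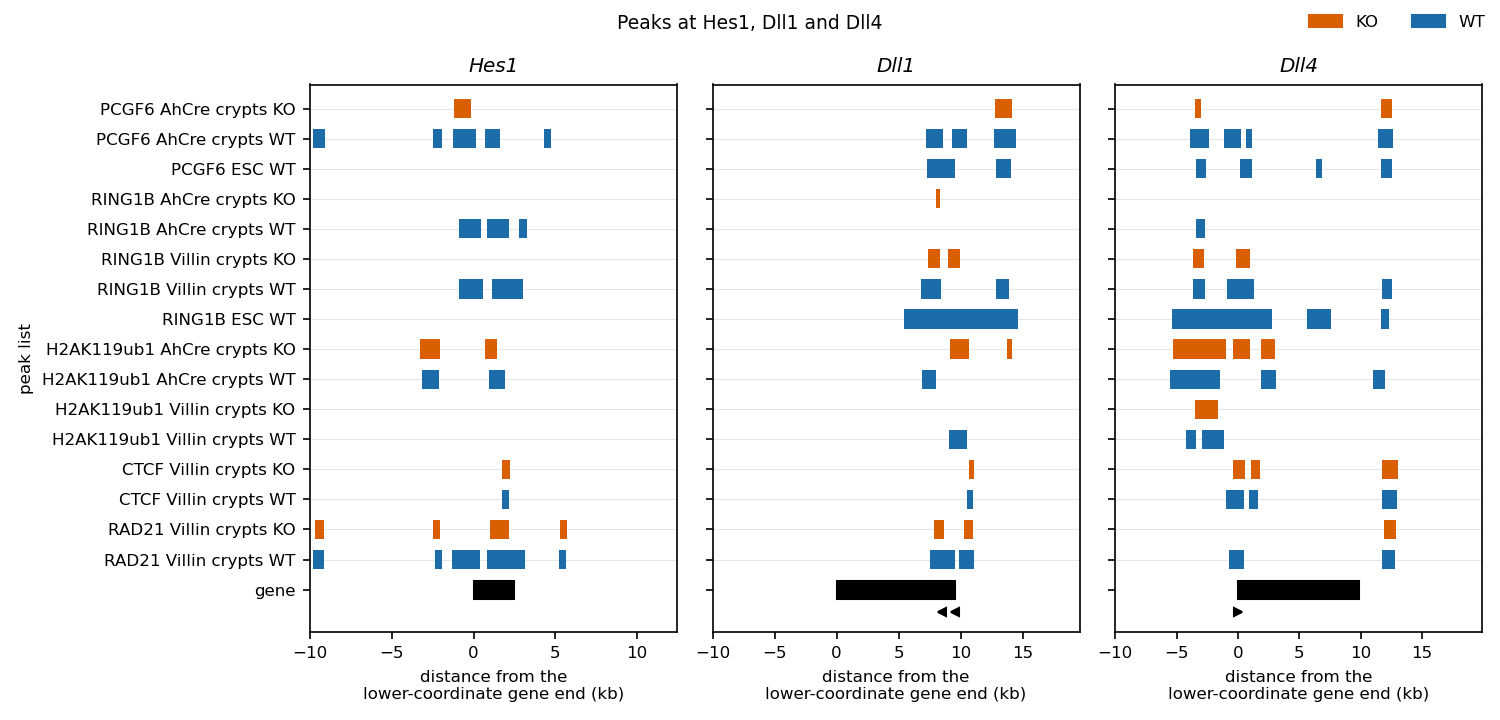
Peaks at Hes1, Dll1 and Dll4 in the 16 lists (rows, KO orange and WT blue), against the distance in kb from the lower-coordinate end of each gene; black bars are the genes and arrowheads are RefSeq starts with their direction (none was given for Hes1). RING1B appears at Hes1 in WT crypts only (scores 10.4 to 13.6), and the PCGF6 peaks of KO crypts at Dll1 and Dll4 lie away from the starts.

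PCGF6 was lost in KO crypts at the ends of Atoh1, Insm1, Dll1 and Dll4, that is at 4 of the 5 genes with a WT peak, against 64.4% of all genes with one. It was gained at 0 of the 4 genes without a WT peak (0.152% of all such genes), and the score of Hes1 was lower in KO (1.78% of all genes with a peak in both had a higher one). Genes with a WT score within 20% of theirs lost the peak in 96.2% of cases at the score of Atoh1 and Dll1, 65.3% at that of Insm1 and 69.2% at that of Dll4. Hes1 kept its peak, as did most genes of its score, of which 16.1% lost it. With scores of 20 or more, the KO peak of Hes1 (18.1) drops out and Hes1 counts as lost. The share lost is thus near that of other genes of like score.

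RING1B was lost at 1 of 4 genes with a WT peak in AhCre crypts (44.7% of all such genes) and at 1 of 5 in Villin crypts (53.7%), in both cases Hes1. It was gained at 0 of 5 genes without a WT peak in AhCre crypts (0.782% of all such genes) and at 1 of 4, Dll1, in Villin crypts (1.31%). Around the RefSeq starts of Dll1, or with 10 kb either side, there was a Villin peak in both genotypes and the score was lower in KO (13.6) than in WT (20.7). At the high scores of Atoh1, Gfi1 and Insm1, between 0% and 6.90% of other genes of like score lost RING1B in either line. H2AK119ub1 was lost at 0 of 5 genes in AhCre crypts (12.8% of all genes with the mark in WT) and at 1 of 4, Dll1, in Villin crypts (29.3%). It was gained at 1 of 4, Dll1, in AhCre crypts (4.26% of all genes without it), where a peak of score 11.4 in each genotype lies within 1 kb of the RefSeq starts, and at 2 of 5, Spdef and Neurog3, in Villin crypts (1.81%). At Spdef the gained peak lay at the 3′ end, and neither genotype had a Villin peak around the RefSeq start. With 10 kb either side, Spdef had a Villin peak in both genotypes, lower in KO (score 13.5, 0.600 kb covered) than in WT (14.5, 1.85 kb). CTCF was lost at 0 of 3 genes (12.0%) and RAD21 at 1 of 3, Dll4 (41.1%), where 73.7% of genes of like score lost it. CTCF (1.26%) and RAD21 (1.62%) were gained at 0 of 6 genes each.

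Scores of genes with a peak in both genotypes give a second view of the same lists. RING1B scores were higher in KO at 2 of 3 genes in AhCre crypts (23.2% of all genes with a peak in both) and at 0 of 4 in Villin crypts (20.9%). The 2 were Gfi1 (181 in KO and 102 in WT) and Insm1, whose scores were nearly equal (66.6 in KO and 65.0 in WT). H2AK119ub1 scores were higher in KO at 4 of 5 genes in AhCre crypts (61.9%) and at 2 of 3 in Villin crypts (38.9%). CTCF and RAD21 scores were higher in KO at 0 of 2 genes each (36.0% and 29.5%). Over all genes the median KO over WT score ratio was 0.802 and 0.766 for RING1B in AhCre and Villin crypts, and 1.1 and 0.925 for H2AK119ub1.

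The bases under peaks, summed over the 9 genes and 10 kb either side, gave KO over WT ratios for RING1B that lay nearer to 1 than those over all genes. RING1B covered 25.2 kb in AhCre KO and 26.5 kb in AhCre WT crypts (ratio 0.949, against 0.714 over all genes). It covered 27.9 kb in Villin KO and 35.4 kb in Villin WT crypts (ratio 0.789, against 0.623). Most RING1B bases lay at Atoh1, Gfi1 and Insm1. In AhCre crypts Gfi1 rose most, with 10.3 kb in KO and 7.49 kb in WT. Atoh1 had 8.14 kb in KO and 8.05 kb in WT, and Insm1 had 6.36 and 7.12 kb. At scores like theirs between 0% and 6.90% of other genes lost RING1B, so the ratios over all genes do not compare genes of like score. H2AK119ub1 covered 54.0 kb in AhCre KO and 44.4 kb in AhCre WT crypts (ratio 1.22, against 1.1). In Villin crypts it covered 26.2 kb in KO and 28.3 kb in WT (ratio 0.928, against 0.844). The mark covered more bases in AhCre KO than in AhCre WT crypts at 6 of 8 genes (57.0% of all genes), with Atoh1 and Hes1 the exceptions. In Villin crypts it did so at 3 of 7 (37.6%). RING1B covered more bases in KO at 3 of 6 genes in AhCre crypts (18.2%) and 0 of 6 in Villin crypts (17.3%). For PCGF6 this held at 0 of 5 genes (0.726%), for CTCF at 3 of 6 (43.3%) and for RAD21 at 0 of 4 (25.6%). PCGF6 covered 3.79 kb in KO and 18.2 kb in WT crypts (ratio 0.208, against 0.214), and RAD21 covered 5.15 kb in KO and 11.5 kb in WT crypts (ratio 0.449, against 0.714). CTCF covered 5.43 kb in KO and 6.05 kb in WT crypts (ratio 0.898, against 0.958). Whether the differences from all genes exceed the spread between libraries could not be tested with 1 library a group.

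**Figure D5:**
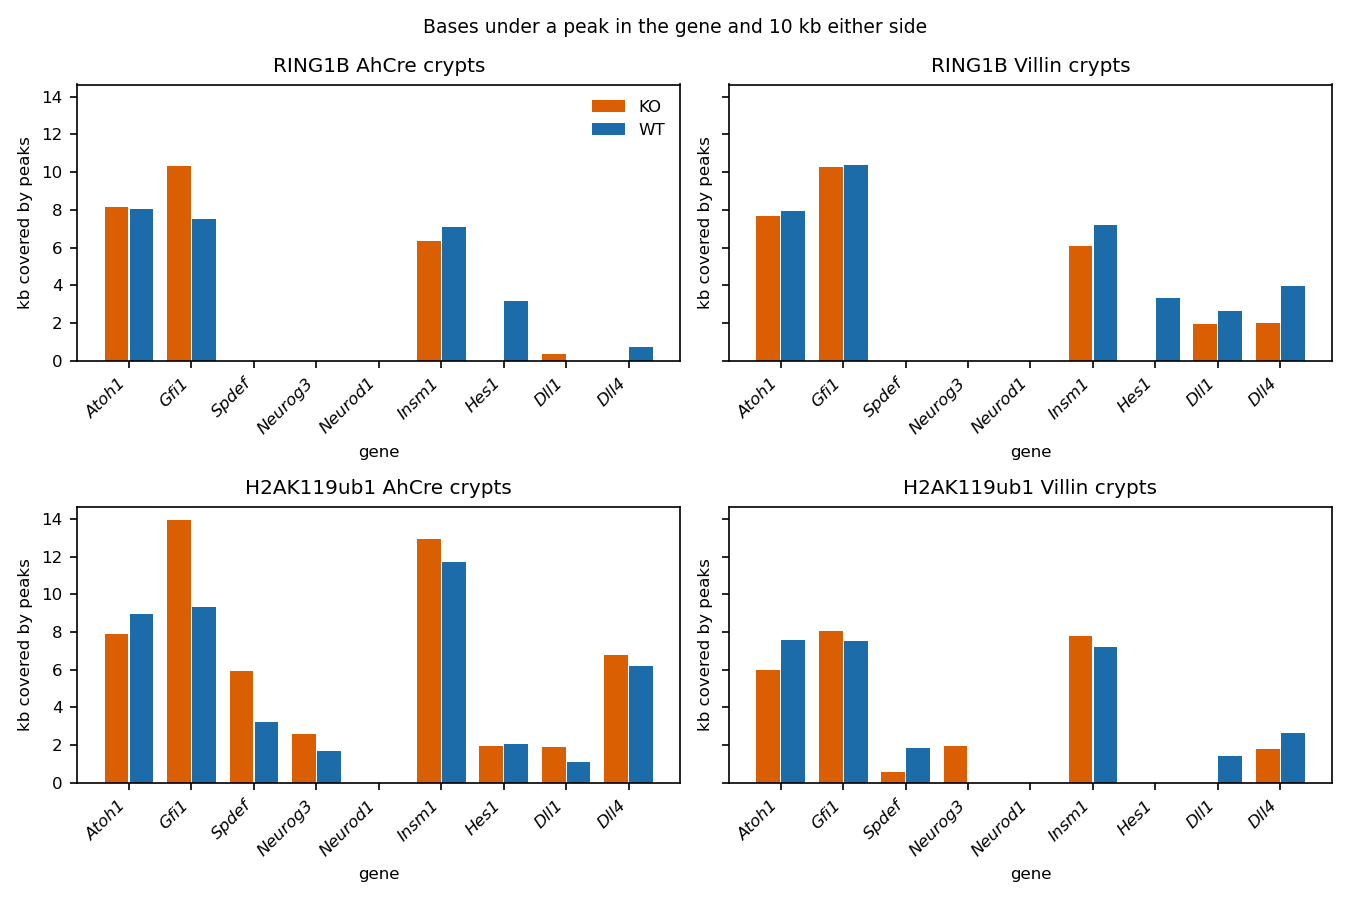
Bases (kb) under RING1B (top) and H2AK119ub1 (bottom) peaks in each of the 9 genes and 10 kb either side, in AhCre (left) and Villin crypts (right), with KO bars left of WT bars; each bar is 1 library. Gfi1 has the widest gain in AhCre crypts, 14 kb of H2AK119ub1 in KO against 9.35 kb in WT, and Hes1 has no RING1B bar in KO.

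RING1B scores at the ligand genes, Atoh1, Gfi1 and Insm1 were all lower in WT crypts than in ESC, and Neurog3 and Neurod1 had RING1B in ESC alone. In AhCre WT, Villin WT and ESC, gene-end scores were 147, 129 and 268 at Atoh1 and 102, 224 and 323 at Gfi1. They were 65.0, 108 and 495 at Insm1. The median scores of these whole lists were 16.3, 14.7 and 30.4 in the same order. In WT crypts RING1B scores were at most 13.6 at the ends of Dll4, while in ESC a peak of 8.10 kb with a score of 430 covered its start. Farther from the gene ends, Dll4 had Villin WT peaks of 40.6 and 29.7. Dll1 had no gene-end RING1B peak in AhCre or Villin WT crypts, with a Villin WT peak of 20.7 near its downstream start, and one of 9.17 kb with a score of 281 in ESC. Neurog3 and Neurod1 had none in crypts and scores of 118 and 21.1 in ESC. Hes1 showed the reverse, with RING1B in WT crypts of both lines and neither RING1B nor PCGF6 within 10 kb in ESC. Atoh1 was alike in extent, with RING1B peaks of 8.05 and 7.92 kb in AhCre and Villin WT crypts and 8.35 kb in ESC. ESC had RING1B at 7 of the 9 genes (17.8% of all genes) and PCGF6 at 5 (22.7%). PCGF6 lay at Gfi1 in ESC (score 17.5) and not in crypts. At the downstream Dll4 site its score was 100.2 in WT crypts and 57.2 in ESC. Scores of crypts and ESC come from different libraries and inputs and were not scaled to each other.

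The promoter motifs were read against all promoters. Of the 9 RefSeq promoters of 7 of these genes, 0 held CACGTG, the E-box of MAX and MGA (7.84% of all promoters). One E2F motif, GCGGGAA, was in none (5.95%), and the other, GGCGGGA, was in 1, that of Neurod1 (14.9%). TGGGAA, the core of the RBPJ site through which Notch acts, was in 1, that of Spdef (24.5%). CACNAG was in 4 (41.9%) and CAGCTG in 2 (15.6%). Both strands were searched, and GCGGGAA and GGCGGGA can overlap each other by 6 bases. A missing match says only that these letters are not in these windows.

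Among 87 other genes of the Notch pathway and the secretory lineages, the enteroendocrine factors Pax6, Neurod2 and Pdx1 had the 3 highest RING1B scores in AhCre crypts of both genotypes. RING1B lay at 8 of 15 enteroendocrine factor genes in AhCre KO (4.89% of all genes) and 9 in AhCre WT crypts (7.74%), and at 7 in Villin KO (7.61%) and 10 in Villin WT crypts (14.2%). Pax6, a factor of hormone cells, had RING1B scores of 133 in AhCre KO and 199 in AhCre WT crypts. The bHLH gene Neurod2 had 109 in AhCre KO and 132 in AhCre WT crypts. Mnx1 was the one gene of the 87 that lost RING1B in both lines, and no gene of the 87 gained it in both, nor lost or gained H2AK119ub1 in both. The WT RING1B scores of Mnx1 were low, 14.5 in AhCre and 12.5 in Villin crypts. Of all genes with RING1B in the WT crypts of both lines, 18.7% lost it in both. H2AK119ub1 was gained in AhCre KO crypts at Nkx2-2, Isl1, Lmx1a and Rfx6. Lmx1a and Rfx6 lost it in Villin KO crypts, along with Mnx1. The secretory lineage factors Sox9, Foxa3, Bhlha15 and Cbfa2t3 gained the mark in AhCre KO crypts as well, while Gfi1b lost it. Of the 11 secretory lineage factors, 0 gained it in Villin KO crypts. In AhCre crypts 35 of the 87 genes had the mark in WT, and 8 others gained it (4.26% of all genes without it). The KO scores of these 8 lay between 10.4 (Isl1) and 18.0 (Bhlha15). In Villin crypts 30 of the 87 had it in WT, and 4 others gained it (1.81%).

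RING1B scores of the other ligand and receptor genes were at most 29.7 in crypts. Of the 3 other ligand genes, Jag1 and Dll3 had a RING1B peak in Villin WT crypts (17.1 and 10.2) that was lost in KO, and none had one in AhCre crypts. Of the receptors, Notch2 had RING1B scores of 14.1 in AhCre KO and 28.2 in AhCre WT crypts, and Notch1 had 12.4 in KO and 20 in WT. Among 15 nuclear and feedback genes, the Notch targets Hey1 (50.3 in AhCre KO, 81.3 in AhCre WT) and Hey2 (18.4 and 22.5) had RING1B in both genotypes, which Hes1 did not. Hey2 had PCGF6 scores of 11.9 in KO and 162 in WT, the highest WT score of the 87, and Hes6 had 25.0 in KO and 85.1 in WT. Of 24 secretory product genes, the hormone gene Cck had RING1B in AhCre KO (13.9) and AhCre WT crypts (31.2), and the other 23 had none in either. PCGF6 lay at 12 of the 87 genes in KO (13.7% of all genes) and 33 in WT crypts (39.9%), and 21 of the 33 lost it (64.4% of all genes with a WT peak), which is close to the shares over all genes. Among those without it in KO were Jag2, Notch4, Adam17, Psen2, Pofut1, Maml3, Hey1, Numb, Foxa1, Foxa2, Foxa3, Klf4, Cbfa2t2, Mnx1, Hhex, Agr2, Fcgbp, Sct and Gip.

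The genes with the most similar pattern of gene-end scores were found by Pearson's r of log2(1 + score) over the 16 lists, among 7054 genes with a peak in at least 4 lists and over 100 kb away. They describe likeness in these libraries only, and the 16 points share antibodies and libraries. Atoh1 was most like Ebf2 (0.996), Pou3f1 (0.996) and Sim2 (0.995). Gfi1 was most like Barhl2 (0.996), Nkx2-3 (0.995) and Foxd4 (0.995), and Insm1 was most like Cbln1 (0.994), Hspa2 (0.993) and Scarf2 (0.990). Neurog3 was most like Cacna1i (0.999), Ltbp3 (0.998) and Car15 (0.998). The ligands and Hes1 had less close matches. These were Adamts15 (0.885), Epb41l3 (0.826) and Bmp2 (0.821) for Dll1, Sowahb (0.893), Tmem30b (0.869) and Zhx2 (0.865) for Dll4, and Trim8 (0.828), Lmnb1 (0.822) and Acap2 (0.819) for Hes1. Spdef and Neurod1 had a gene-end peak in too few lists to be compared.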

How the data were processed

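ChIP-seq was done on crosslinked, sonicated chromatin of crypts and ESC, and 16 of 22 samples had a peak list; the 6 input samples were not used. Each list came from 1 library and was used as the authors deposited it, with −log10 p or q values as scores. Per the labels, an input of WT crypts and one of WT ESC were the references for calling peaks. The tools in the submitters' processing notes are MACS2 2.1.1 with Bowtie 1.1.2 or 1.2.2; mm10, dm6 and hg38 are listed as builds with no role, and no other setting was given. A description line of each ESC sample exchanges PCGF6 and RING1B, so the titles and antibody tags were followed. A peak below the caller's threshold is missing from a list, so presence depends on each library's depth, which is unknown.

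Chromosomes 1 to 19, X and Y were kept and starts made 1-based. Genes were the 21887 protein-coding genes of RefSeq GRCm38.p6, the mm10 build. Promoter sequences, strands and starts came from the RefSeq promoter table of that build, which matched 7 of the 9 genes. A peak was shared when at least 1 bp overlapped. Genes were counted beside all genes, without tests, since each group had 1 library. Named by rule were the 9 genes, up to 5 highest-scoring genes of 7 related lists, their genes that lost or gained PCGF6, or RING1B or H2AK119ub1 in both lines, and the 3 most similar genes; other genes of those lists were named after their values were seen. Some genes of those lists are not reported here by name. The genes, lists and comparisons were chosen with earlier results of these data known. The shares of genes with similar scores were added after the values were seen. Overlaps were checked with bedtools 2.31.1 and differed in 0 of 7 pairs. In a simulation 200 peaks were removed from the Villin WT RING1B list, and all 129 genes whose gene-end peaks were all removed were called lost. The expected and called genes came from the same overlaps, so this checks the code and not the rule on real lists. Python 3.11.15, numpy 2.4.6, pandas 2.3.3 and matplotlib 3.10.9 were used.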

Additional observations from a re-analysis of the deposited data

Results flagged for a closer look

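At 4 places the strongest gene-end peak differed between KO and WT crypts in opposite directions in the AhCre and Villin lines, with 1 library per group, and the difference between the lines was not tested. The RING1B score of Gfi1 was 1.77 times the WT score in AhCre KO crypts and 0.636 times the WT score in Villin KO crypts. That of Insm1 was 1.03 times the WT score in AhCre KO and 0.409 times in Villin KO crypts. The AhCre scores, 66.6 in KO and 65.0 in WT, were close, and other measures of RING1B at Insm1 were lower in KO in both lines: the second peak (15.0 in KO and 25.1 in WT in AhCre, 12.5 in KO and 18.2 in WT in Villin) and the bases covered (6.36 kb in KO and 7.12 kb in WT in AhCre, 6.06 kb in KO and 7.21 kb in WT in Villin). The H2AK119ub1 score of Atoh1 was 1.34 times the WT score in AhCre KO and 0.872 times in Villin KO crypts. The H2AK119ub1 gene-end peak of Dll1 was gained in AhCre KO crypts (KO score 11.4) and lost in Villin KO crypts (WT score 11.5), both close to the lowest score deposited. Around the RefSeq starts of Dll1, or with 10 kb either side, the AhCre score was 11.4 in both genotypes, so no AhCre difference remained there. Over all genes with a peak in both genotypes the median ratio of KO to WT scores was 0.802 in AhCre and 0.766 in Villin crypts for RING1B, and 1.1 and 0.925 for H2AK119ub1, so the lists of H2AK119ub1 as a whole differed in direction too. The part of library depth in these ratios was not tested.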

How the results depend on the processing

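Of the 9 genes, gene-end peaks were lost 8 times and gained 4 times over the 7 comparisons. Requiring 0.5 of a peak to overlap gave the same counts. With scores of 20 or more, 4 were lost and 1 gained, and 43 instead of 66 gene-end peaks remained over the 16 lists. The genes differed too: PCGF6 was lost at Insm1, Hes1 and Dll4, RAD21 at Hes1 in place of Dll4, and H2AK119ub1 was gained in AhCre crypts at Neurog3 in place of Dll1. RING1B was then lost at 0 genes in AhCre and 0 in Villin crypts and gained at 0 in Villin crypts, and H2AK119ub1 was lost at 0 and gained at 0 in Villin crypts. With lists of equal length 3 were lost and 5 gained: PCGF6 was lost at 0, with Hes1 the only gene of the 9 left with a WT peak, RING1B in Villin crypts at 0 (gained at 2), RAD21 at 0 and H2AK119ub1 in AhCre crypts at 1. End windows of 500 bp gave 2 gains of H2AK119ub1 in AhCre crypts. End windows of 2 kb gave 1 gain of RING1B in AhCre and 0 in Villin crypts, 0 gains of H2AK119ub1 in AhCre crypts and 0 losses of RAD21. With them PCGF6 was lost at 3, Atoh1, Insm1 and Dll1, and no longer at Dll4. Windows around RefSeq starts, which leave out Hes1 and Insm1, gave 5 losses and 2 gains: RING1B was lost at 0 in AhCre (gained at 1) and 0 in Villin crypts (gained at 0), and H2AK119ub1 was gained at 0 in AhCre and 1 in Villin crypts. The gene plus 10 kb gave 2 gains in all. PCGF6 was lost at 2, Atoh1 and Insm1, and RING1B was lost at 2 and gained at 1 in AhCre crypts and gained at 0 in Villin crypts. RAD21 was lost at Insm1 in place of Dll4, which had RAD21 in both genotypes within 10 kb (138 in KO and 209 in WT). H2AK119ub1 was gained at 0 in AhCre and 1 in Villin crypts, and CTCF was lost at 1, at Spdef. That CTCF peak (WT score 10.7) overlapped the AhCre KO H2AK119ub1 peak centred 6.83 kb beyond the 3′ end of Spdef, on the side of Pacsin1. Fewer peaks or genes enter the stricter score, the shortened lists and the RefSeq starts; the cause of the other shifts was not tested. The loss of RING1B at Hes1 in both lines held for all windows that include Hes1. It was not called in either line for scores of 20 or more, nor in Villin crypts with lists of equal length, where its WT peaks drop out. No paired analysis was possible because each group had 1 library, and for the same reason no library could be left out. Depth is unknown, so a missing peak is not shown to be an absent protein or mark.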
